A study of Homo sapiens with 24 samples.

Results

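The data described here are the response to 24 h of estrogen in BT-474 cells whose HER2 had been reduced with siRNA. They are 6 arrays of a series of 24, chosen by their labels: 3 from HER2 siRNA cells given 10 nM estrogen for 24 h, and 3 from HER2 siRNA cells given vehicle (0.001% ethanol) for the same time. BT-474 is an established human breast cancer line that carries an amplified ERBB2 gene, which encodes the receptor tyrosine kinase HER2, and that also expresses the estrogen receptor. The other groups used for comparison, each of 3 arrays, are HER2 siRNA cells with 10 nM estrogen or vehicle for 4 h, and control siRNA cells with 10 nM estrogen or vehicle for 24 h. All groups share the cell line and a transfected siRNA. The knockdown is transient and partial, and the labels give neither the siRNA sequences nor the origin of the replicates. The p-values therefore speak of array-to-array spread, which may be technical.

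Estrogen acts through the estrogen receptor, a ligand-activated transcription factor that binds estrogen response elements, mostly far from the genes it regulates. Early targets include transcription factors such as MYC and the progesterone receptor PGR, and secreted proteins such as TFF1. In luminal breast cancer cells the hormone also drives entry into the cell cycle, in which E2F factors switch on the genes of DNA replication. HER2 signals through the MAPK and PI3K pathways to the same cell cycle machinery.

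The values are log2 levels that the authors made by RMA, a method that corrects, normalises and summarises the probes of an Affymetrix array, so a difference of 1 is a doubling. Of 19775 genes measured by a probe set of their own, 14335 reached a log2 level of 5 in at least 3 arrays and were tested with limma, a linear model across all 24 arrays. Differences are estrogen minus vehicle on the log2 scale, given with their standard error, and a gene passed the test at a Benjamini-Hochberg adjusted p under 0.05 over all genes tested. The number of arrays limits the precision. Array medians ran from 5.28 to 5.36, and arrays of the same group correlated between 0.991 and 0.997. All 8 luminal markers (KRT8, KRT18, KRT19, EPCAM, CDH1, ESR1, GATA3 and FOXA1) stood at a log2 level of at least 7 in all 6 arrays. Of 16 markers of fibroblasts, leukocytes and endothelial cells 8 reached the level filter, none passed the test, and their mean level was 6.29, 6.13 and 6.19 in the estrogen arrays and 6.24, 6.23 and 6.22 in the vehicle arrays. A level of at least 7 in all 6 arrays was also reached by 1 fibroblast marker. Of 6 basal and mesenchymal markers 2 reached the filter, 1 stood at 7 or more in all 6 arrays, and 1 passed the test. The endothelial marker VWF (0.41, adjusted p = 0.0748) passed in 6 of 16 alternatives, the replicate block among them (adjusted p = 0.0132), and its part in other results was not tested. The difference between the 3′ and 5′ control probe sets of GAPDH, a sign of RNA integrity, was 0.44, 0.47 and 0.44 in the estrogen arrays and 0.42, 0.51 and 0.44 in the vehicle arrays (exact permutation test, two-sided, p = 0.9; the smallest p that 3 against 3 allows is 0.1). In arrays of whole cultures, fewer cells with a transcript and less of it per cell cannot be told apart.

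ERBB2, the gene targeted by the siRNA, stood at 12.22, 12.44 and 12.33 in the estrogen arrays and at 12.36, 12.69 and 12.57 in the vehicle arrays. These ranges overlap, and the difference of -0.21 ± 0.11 did not pass the test (adjusted p = 0.383). With vehicle at 24 h, ERBB2 was lower in HER2 siRNA cells than in control siRNA cells, by a difference of -1.34 ± 0.11 (adjusted p = 5.22e-09). ESR1, the estrogen receptor itself, had 9.02, 9.33 and 9.62 with estrogen and 8.67, 9.00 and 9.25 with vehicle. Its difference of 0.35 ± 0.15 did not pass (adjusted p = 0.244), but it did with the replicate number as a block (adjusted p = 0.0321). The other 3 probe sets of ESR1 that were measured differed by -0.01, 0.08 and -0.01. NCOA3, a coactivator of the estrogen receptor, was not analysed here.

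After 24 h of estrogen 613 genes were higher and 272 were lower in HER2 siRNA cells, which is 4.28% and 1.90% of the genes tested, or 6.17% together. The median over all genes tested was -0.0032, and 2295 genes had an unadjusted p under 0.05. With the replicate number as a block the counts were 816 and 435. Without estrogen replicate 3 they were 369 and 182, without estrogen replicate 2 the lower count was 160, and without vehicle replicate 3 it was 173. The response leaned towards induction, with 69.3% of the genes past the threshold higher, and large changes were nearly all increases: 96 genes rose by at least 1 and 11 fell by at least 1. Among the 96, 25 rose by at least 2 and 6 by at least 3. For each of the 96, every estrogen array lay above every vehicle array. The 96 were chosen by their difference in these same arrays, so their separation is no further support. Over all genes tested, 11.5% had every estrogen array above every vehicle array and 8.55% had every one below.

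**Figure D1:**
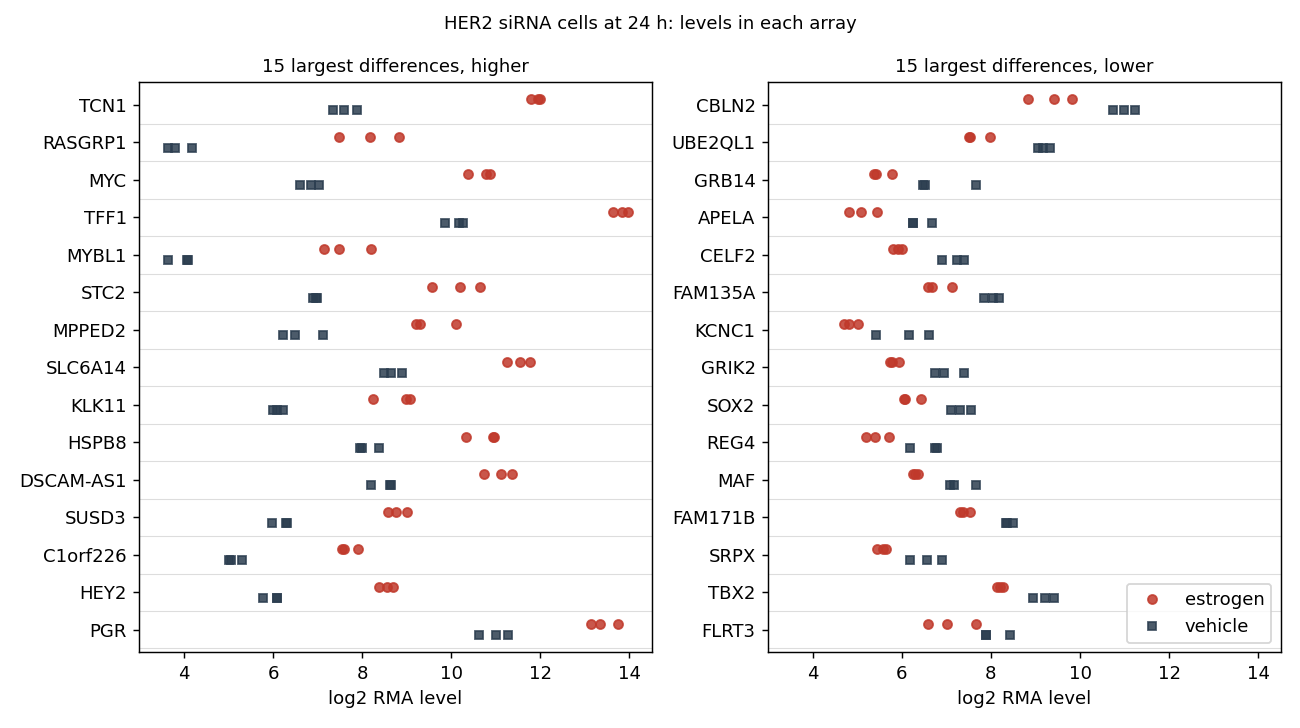
Log2 RMA level (horizontal axis) in each of the 6 HER2 siRNA arrays at 24 h for the 15 genes with the largest increases (left panel) and the 15 with the largest decreases (right panel), with estrogen arrays as red circles above vehicle arrays as dark squares. Only genes with separate groups were eligible, so the separation in every row is part of the choice. The increases reach 4.31 (TCN1) where the decreases reach -1.63 (CBLN2).

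The largest increase was in TCN1, which encodes haptocorrin, a secreted vitamin B12 binding protein. TCN1 stood at 11.80, 11.95 and 11.98 with estrogen and at 7.88, 7.34 and 7.60 with vehicle. The estrogen arrays lay close together and far above the vehicle arrays, with a difference of 4.31 ± 0.26 (adjusted p = 5.25e-10, limma), or 19.8-fold. RASGRP1, an exchange factor that activates Ras, had 7.47, 8.19 and 8.82 with estrogen and 3.81, 4.18 and 3.65 with vehicle, a difference of 4.28 ± 0.32 (adjusted p = 7.56e-09). Its vehicle level was under the filter of 5 in all 3 arrays. This was so for 7 of the 96 genes, MYBL1 among them, and at such dim levels an array measures a fold change less well.

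Several transcription factors were among the regulators with large increases. MYC, the growth-promoting factor that also drives ribosome synthesis, had 10.37, 10.79 and 10.88 with estrogen and 7.04, 6.86 and 6.61 with vehicle. The ranges were far apart, and the difference was 3.84 ± 0.24 (adjusted p = 5.53e-10), or 14.4-fold. MYBL1, a relative of the MYB oncogene, stood at 7.15, 7.49 and 8.19 with estrogen and 3.64, 4.08 and 4.10 with vehicle, a difference of 3.67 ± 0.29 (adjusted p = 1.2e-08). A second MYBL1 probe set differed by -0.02 ± 0.12, so the probe sets of this gene disagree. HEY2, a repressor of the Notch pathway, had 8.38, 8.56 and 8.70 with estrogen and 6.10, 6.09 and 5.79 with vehicle. PGR had 13.13, 13.34 and 13.75 with estrogen and 10.63, 11.00 and 11.28 with vehicle. The differences were 2.56 ± 0.16 for HEY2 and 2.44 ± 0.26 for PGR, and in both genes the lowest estrogen array was above the highest vehicle array. MPPED2, a metallophosphoesterase, differed by 2.92 ± 0.39, with the estrogen arrays between 9.20 and 10.11 and the vehicle arrays between 6.22 and 7.12.

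These 5 genes belong to a list of 26 tested early estrogen-induced regulators, of which 18 rose, 1 fell and 7 did not pass, with a median difference of 0.71 (background 4.28% higher, median -0.0032 over all genes). This list and those below were chosen with earlier results of these data known. Their shares are therefore a description and not an independent test. Besides those above, GREB1, a cofactor of the estrogen receptor, rose by 2.17, ZNF703, a luminal transcriptional repressor, by 1.63, SIAH2, a ubiquitin ligase, by 1.56 and RARA, the retinoic acid receptor alpha, by 1.27. MYB, a transcription factor, rose by 1.61, and CISH, an inhibitor of cytokine signalling, by 1.26. RARA was among the tightest, at 8.42, 8.55 and 8.60 with estrogen and 7.32, 7.11 and 7.32 with vehicle (adjusted p = 1.06e-08). Its dimmer probe sets differed by less, at 0.58, 0.13 and 0.46, so the size of its rise depends on the probe set. CCND1, which encodes cyclin D1, rose by 0.59 ± 0.12. TBX2, a transcriptional repressor on the same list, went the other way. It had 8.13, 8.20 and 8.27 with estrogen and 8.93, 9.22 and 9.41 with vehicle, a difference of -0.99 ± 0.17 (adjusted p = 0.000459). EGR3, an immediate early factor, differed by 0.53 and did not pass.

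The secreted and surface proteins rose in a similar share, with 18 of 26 tested members higher, none lower and a median of 0.72. TFF1, a trefoil peptide and a classical estrogen target, had 13.63, 13.83 and 13.96 with estrogen and 10.18, 10.27 and 9.85 with vehicle, a difference of 3.71 ± 0.16 (adjusted p = 2.56e-12), which was the smallest adjusted p of the named genes. STC2, the glycoprotein stanniocalcin 2, had 9.57, 10.19 and 10.66 with estrogen and 6.90, 6.98 and 6.97 with vehicle. Its vehicle arrays were nearly equal while its estrogen arrays were spread over more than 1 log2 unit, and the difference was 3.19 ± 0.21. SLC6A14, an amino acid transporter, stood at 11.26, 11.55 and 11.78 with estrogen and 8.65, 8.49 and 8.91 with vehicle, a difference of 2.85 ± 0.23. SUSD3, a membrane protein, differed by 2.58 ± 0.14 with arrays between 8.57 and 9.00 with estrogen and between 5.99 and 6.31 with vehicle. A dimmer SUSD3 probe set differed by -0.03. IGFBP4, which binds insulin-like growth factors, rose by 2.02 ± 0.11, and the neuropeptide receptor NPY1R by 1.66. CTSD, which encodes cathepsin D, differed by 0.07 and did not pass.

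Further genes with large increases have other known roles. HSPB8, a small heat shock protein, had 10.33, 10.95 and 10.96 with estrogen and 8.37, 8.0 and 7.96 with vehicle, a difference of 2.64 ± 0.21. DSCAM-AS1, a long noncoding RNA of luminal breast cancer, had 10.74, 11.11 and 11.36 with estrogen and 8.62, 8.64 and 8.20 with vehicle, a difference of 2.58 ± 0.15. Both were separate in all arrays. C1orf226, an open reading frame of uncharacterised function, differed by 2.56 ± 0.16. PMAIP1, the proapoptotic BH3-only protein NOXA, had 8.58, 8.42 and 8.40 with estrogen and 6.29, 6.09 and 5.71 with vehicle. Its rise of 2.43 ± 0.16 was the largest in a list of 13 tested BCL2 family genes, of which 2 rose and 1 fell. Over all genes tested 4.28% rose and 1.90% fell. The others were BID, which rose by 0.34, and BIK, a BH3-only protein that fell by 0.27. BIK's call ended in 9 of the 16 alternative settings. BCL2, the antiapoptotic founder of the family, differed by 0.36, which passed only with the replicate block in all arrays or in the 6 alone (adjusted p = 0.0400 and 0.0289).

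Kallikreins are secreted serine proteases whose genes lie in a cluster on chromosome 19. Of 12 tested kallikreins 3 rose (background 4.28% higher), and they are next to each other in the RefSeq gene order: KLK10, KLK11 and KLK12. KLK11 had 8.24, 8.99 and 9.07 with estrogen and 6.22, 6.08 and 6.01 with vehicle, a difference of 2.67 ± 0.18. KLK10 had 6.96, 7.46 and 7.84 with estrogen and 5.21, 4.89 and 4.98 with vehicle, a difference of 2.39 ± 0.16. KLK12 differed by 1.42 ± 0.15, but its other probe sets, nearly as bright, differed by 2.43 and 2.13, so the size of its rise depends on the probe set. The other 9 differed by between -0.12 and 0.11, and the list median was 0.04. Other neighbours rose together as well. In the RefSeq order of all protein-coding genes, tested or not, 52 consecutive pairs were both higher and 17 were both lower. In 10 pairs, made of 17 genes, both rose by at least 1. Apart from the kallikreins these were TFF1 with TMPRSS3, PPM1K with HERC6 and HERC5, FGD3 with SUSD3 and CARD19, TSKU with ACER3, RBM24 with CAP2, and CCDC110 with PDLIM3. These runs were found after the values were seen and are given as a description, since a share expected for neighbours was not computed.

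The genes that fell did so by less. CBLN2, a secreted protein of the cerebellin family, stood at 9.82, 9.41 and 8.84 with estrogen and 11.22, 11.00 and 10.75 with vehicle, a difference of -1.63 ± 0.23 (adjusted p = 5.31e-05). UBE2QL1, a ubiquitin-conjugating enzyme, had 7.97, 7.52 and 7.52 with estrogen and 9.16, 9.06 and 9.33 with vehicle, a difference of -1.51 ± 0.12 (adjusted p = 2.62e-08). GRB14, an adaptor that inhibits the insulin receptor, had 5.42, 5.38 and 5.77 with estrogen and 6.46, 6.53 and 7.67 with vehicle. One GRB14 vehicle array stood well above the other two, and the difference was -1.36 ± 0.30 (adjusted p = 0.00593). APELA, a peptide ligand of the apelin receptor, differed by -1.28 ± 0.18, and CELF2, an RNA-binding splicing regulator, by -1.27 ± 0.12. The transcription factors SOX2 and MAF differed by -1.14 ± 0.22 and -1.01 ± 0.15, and the glutamate receptor subunit GRIK2 by -1.22 ± 0.21. Dimmer probe sets of CELF2, SOX2 and MAF differed by -0.16, -0.30 and -0.58 and did not pass. The size of these 3 decreases thus depends on the probe set. REG4, a secreted lectin, differed by -1.14 ± 0.16, FAM135A by -1.23 ± 0.16 and FAM171B by -0.99 ± 0.15. The call of KCNC1, a potassium channel (-1.22 ± 0.29), ended without estrogen replicate 3 (adjusted p = 0.0540) or without vehicle replicate 3 (adjusted p = 0.0799). SRPX (-0.99 ± 0.28) and the adhesion protein FLRT3 (-0.98 ± 0.28) lost theirs in 5 of 15 and 9 of 16 alternatives.

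In a list of 13 tested genes known to be repressed by estrogen, 5 fell, none rose and the median was -0.28 (background 1.90% lower). All 13 had a negative difference. TP53INP1, a p53-induced regulator of autophagy and apoptosis, had 10.76, 10.80 and 11.05 with estrogen and 11.41, 11.46 and 11.79 with vehicle, a difference of -0.69 ± 0.12. IL1R1, the interleukin 1 receptor, differed by -0.61 ± 0.10, HES1, a repressor of the Notch pathway, by -0.45 ± 0.08, and EFNA1, a ligand of Eph receptors, by -0.41 ± 0.10. Without estrogen replicate 3 the count was 3 of 13, and EFNA1 was among those that ended (adjusted p = 0.0607).

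**Figure D2:**
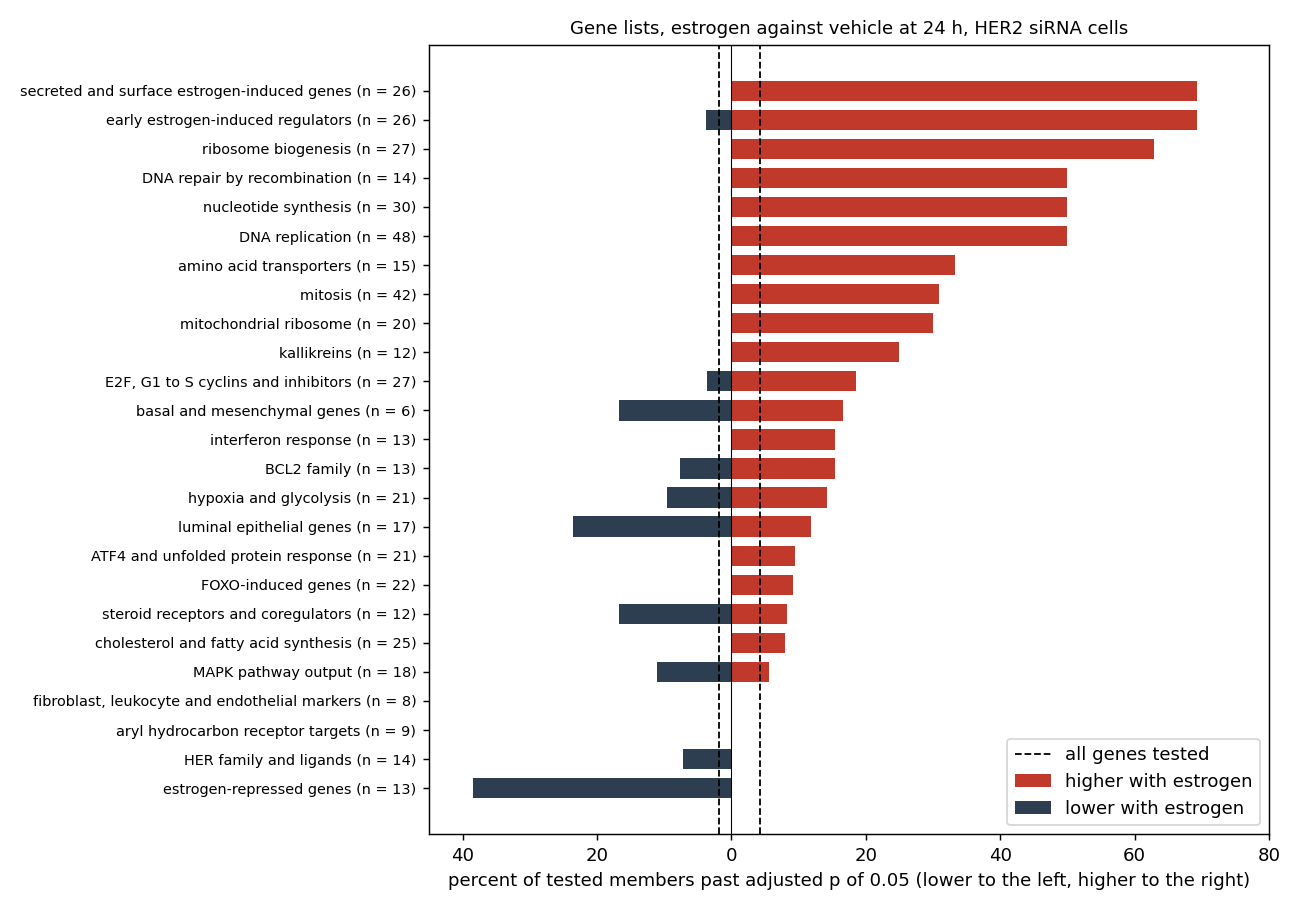
Percent of the tested members of each of 25 gene lists past an adjusted p of 0.05 in HER2 siRNA cells at 24 h, with members higher with estrogen as red bars to the right and members lower as dark bars to the left; n is the number of members tested. The dashed lines are the shares of all genes tested, 4.28% higher and 1.90% lower, and the longest bars belong to the estrogen-induced, ribosome, DNA synthesis and DNA repair lists. The lists were chosen with earlier results of these data known.

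Genes of DNA synthesis rose together. Of 48 tested DNA replication genes 24 rose, none fell and the median was 0.41, and 45 had a positive difference. MCM6, a subunit of the replicative helicase, had 9.71, 9.96 and 9.96 with estrogen and 9.18, 9.23 and 9.13 with vehicle. Estrogen arrays were tightly above vehicle arrays, with a difference of 0.70 ± 0.08 (adjusted p = 4.4e-06). MCM10, which helps to activate the helicase, differed most, at 6.61, 7.02 and 7.09 with estrogen against 5.25, 5.85 and 5.88 with vehicle, a difference of 1.25 ± 0.23. POLE2, a subunit of DNA polymerase epsilon, differed by 0.87 ± 0.15, TIPIN, a replication fork protein, by 0.59 ± 0.08, and GINS2, another part of the helicase, by 0.54 ± 0.08. MCM4 differed by 0.18 and LIG1, a DNA ligase, by 0.04, and neither passed. Without estrogen replicate 3 the count was 16 of 48, and with only the 6 arrays in the fit it was 14.

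The sequences near the starts of the replication genes are shown because they hold a motif of the E2F factors more often than those of all genes tested. The window was 250 bases before to 50 bases after the first listed RefSeq start (GRCh38.p14), it was found for 11448 of the 14335 genes tested, and TTTCGCGC and TTTGGCGC were searched on both strands. Matches on opposite strands can overlap, since the motifs share letters with each other's reverse complement. Of 23 raised replication genes with a window 8 held a match (34.8%), as did 11 of 40 tested replication genes with one (27.5%), against 1.85% of the windows of all genes tested. Over all 27305 windows of the annotation 1.18% did. The 250 bases before the start of MCM6 (chr2:135876444-135876693, minus strand) hold 2 pairs of overlapping matches, in capitals, and the 30-base windows of the other 7 genes are printed below it with the matches in capitals. CDC6 (chr17:40287875-40287904, plus strand) loads the helicase, GINS1 (chr20:25407667-25407696, plus), MCM2 (chr3:127598404-127598433, plus), MCM3 (chr6:52284728-52284757, minus) and MCM7 (chr7:100101388-100101417, minus) are parts of it, and POLA2 (chr11:65261898-65261927, plus) and POLE2 (chr14:49688201-49688230, minus) are polymerase subunits.
MCM6: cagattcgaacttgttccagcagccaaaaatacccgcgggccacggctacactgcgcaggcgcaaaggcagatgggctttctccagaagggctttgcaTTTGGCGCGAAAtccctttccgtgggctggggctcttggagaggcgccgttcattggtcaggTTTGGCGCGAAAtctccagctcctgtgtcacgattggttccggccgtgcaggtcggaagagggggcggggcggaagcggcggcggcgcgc
CDC6: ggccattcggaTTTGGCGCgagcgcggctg
GINS1: agctttgttcgGCGCCAAAgcgcggagcgg
MCM2: tgaaccactTTTCGCGCGAAAcctggttgt
MCM3: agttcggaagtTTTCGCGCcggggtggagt
MCM7: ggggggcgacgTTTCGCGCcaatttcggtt
POLA2: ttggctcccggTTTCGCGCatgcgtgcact
POLE2: ctgcggcggtgGCGCCAAAtcgcaaatatg
A match is a description of letters, not of binding. The 8 genes rose by between 0.38 (GINS1) and 0.87 (POLE2), CDC6 by 0.62, POLA2 by 0.62, MCM2 by 0.50, MCM7 by 0.49 and MCM3 by 0.46.

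Nucleotide synthesis, which supplies replication, rose in 15 of 30 tested genes, with none lower and a median of 0.33. RRM2, the regulated subunit of ribonucleotide reductase, had 10.42, 10.70 and 10.71 with estrogen and 9.37, 9.82 and 9.60 with vehicle, a difference of 1.01 ± 0.11 (adjusted p = 3.84e-06). CTPS1, which makes cytidine triphosphate, had 6.32, 6.33 and 6.47 with estrogen and 5.44, 5.43 and 5.45 with vehicle, a difference of 0.93 ± 0.11. NME1, a nucleoside diphosphate kinase, differed by 0.85 ± 0.10, TYMS, thymidylate synthase, by 0.76 and IMPDH2, of guanine nucleotide synthesis, by 0.58 ± 0.08. Replicates of these genes lay closer to each other than to any array of the other group. RRM1, the large subunit of ribonucleotide reductase, differed by 0.14 and did not pass. With only the 6 arrays in the fit 8 of 30 rose.

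Of the upstream cell cycle regulators, 5 of 27 tested rose and 1 fell (background 4.28% higher and 1.90% lower). CDC25A, a phosphatase that activates cyclin-dependent kinases, differed by 0.74 ± 0.13 and E2F2, a transcription factor of the E2F family, by 0.64 ± 0.13. E2F1 had 7.71, 7.44 and 7.43 with estrogen and 7.10, 7.60 and 7.42 with vehicle, ranges that overlap, and its difference of 0.15 ± 0.14 did not pass (adjusted p = 0.708). CDKN1C, an inhibitor of cyclin-dependent kinases, had 8.19, 8.12 and 8.45 with estrogen and 8.81, 8.77 and 9.10 with vehicle, a difference of -0.64 ± 0.12. E2F2's call ended with the mean of its probe sets (adjusted p = 0.0648), and the count of 5 became 3 without estrogen replicate 3, without vehicle replicate 2, with the mean of probe sets or with only the 6 arrays in the fit.

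Genes of homologous recombination, which repairs DNA during replication, rose in 7 of 14 tested, with none lower and a median of 0.50. BRIP1, EXO1, BRCA1 and BARD1 differed by 0.78 ± 0.16, 0.75 ± 0.17, 0.70 ± 0.13 and 0.69 ± 0.13. BRCA1, the tumour suppressor that works with BARD1, had 7.08, 7.37 and 7.34 with estrogen and 6.39, 6.67 and 6.62 with vehicle. Its groups were separate, but averaging the BRCA1 probe sets left it short of the threshold (adjusted p = 0.0839). The count was 4 of 14 without estrogen replicate 2, without estrogen replicate 3 or with only the 6 arrays in the fit.

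Mitosis genes shifted upward by small amounts. Of 42 tested 13 rose, none fell and the median was 0.43, and 41 had a positive difference. BUB1B, a spindle checkpoint kinase, had 8.09, 8.41 and 8.42 with estrogen and 7.45, 7.81 and 7.74 with vehicle, a difference of 0.64 ± 0.15 (adjusted p = 0.0112). CENPE, a kinetochore motor, had 5.71, 6.12 and 6.16 with estrogen and 5.13, 5.39 and 5.56 with vehicle, a difference of 0.64 ± 0.14. In both genes replicate 1 was the lowest array of its group. The count rested on single arrays: it was 0 without estrogen replicate 3, 1 without vehicle replicate 1, 5 without estrogen replicate 2, 8 without vehicle replicate 2, and between 10 and 16 without the others. It was 6 with only the 6 arrays in the fit and 28 when the replicate number was a block within those 6 arrays. MKI67, a marker of cycling cells, differed by 0.32 and did not pass.

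Against control siRNA cells with vehicle, most of these genes were still low after estrogen. The mean of the estrogen arrays was below the mean of the control siRNA vehicle arrays for 46 of 48 replication genes, with a median difference of -0.57 between these groups, where the median with vehicle in HER2 siRNA cells was -0.97. All 42 mitosis genes were below, with a median of -1.57 with estrogen and -2.00 with vehicle, as were 13 of 14 recombination genes, with medians of -0.94 and -1.55. In nucleotide synthesis 16 of 30 were below, with a median of -0.0065 with estrogen and -0.28 with vehicle. In ribosome biogenesis 4 of 27 were below, with a median of 0.16 with estrogen and -0.19 with vehicle. MCM6, for example, averaged 9.88 ± 0.14 in HER2 siRNA cells with estrogen and 9.18 ± 0.05 with vehicle, and 10.46 ± 0.07 in control siRNA cells with vehicle (SD, n = 3 each). These levels share the control siRNA vehicle arrays, and no test was made of the estrogen level against them. With vehicle, 2820 of the 14335 genes tested were called higher and 3122 lower in HER2 siRNA than in control siRNA cells. The median of that difference over all genes tested was 0.0093. The share of all genes tested with an estrogen mean below the control siRNA vehicle mean was not computed, so the counts above are a description.

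**Figure D3:**
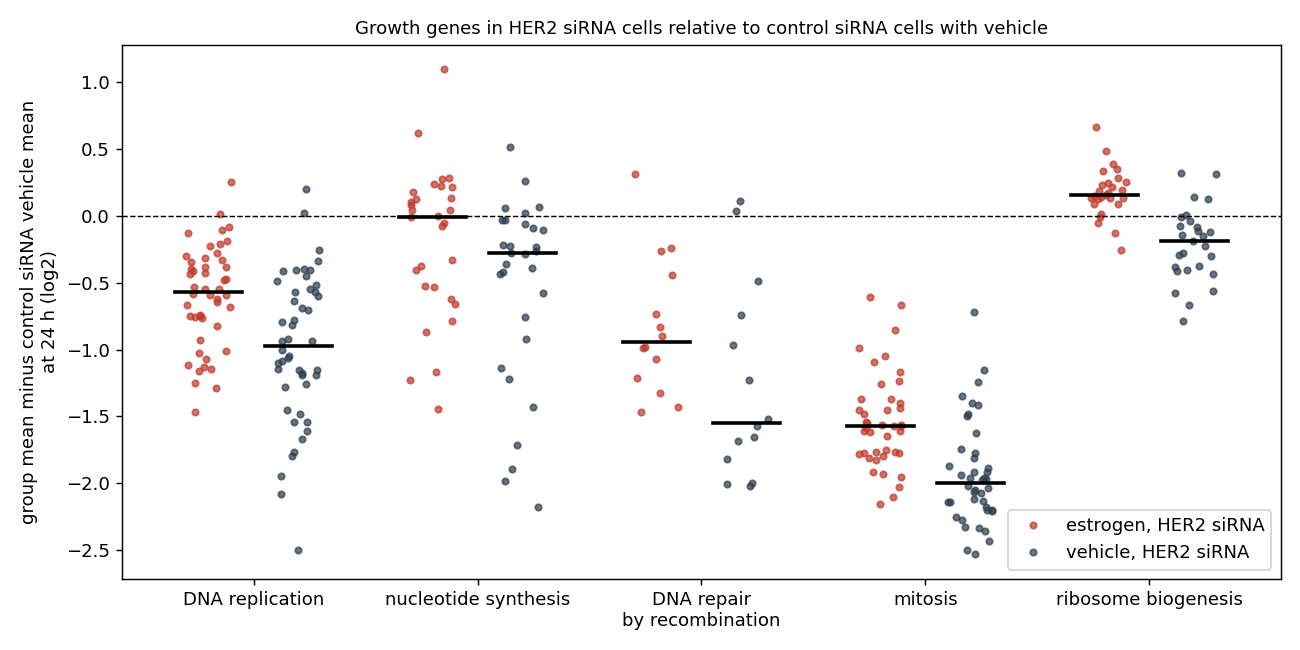
Group mean minus the mean of control siRNA cells with vehicle at 24 h (log2, vertical axis) for each tested member of 5 gene lists, with HER2 siRNA cells given estrogen as red points to the left and given vehicle as dark points to the right; black bars are medians. Every mitosis gene stays below 0 with estrogen, where ribosome biogenesis genes have a median of 0.16.

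Ribosome biogenesis, the making of ribosomal RNA and its assembly in the nucleolus and a known target of MYC, rose in 17 of 27 tested genes, with none lower and a median of 0.35. POLR1B, the second largest subunit of RNA polymerase I, had 9.02, 9.10 and 9.37 with estrogen and 8.25, 8.15 and 8.41 with vehicle, a difference of 0.89 ± 0.11. NOP16, a nucleolar protein, had 9.76, 9.96 and 9.71 with estrogen and 9.11, 9.03 and 9.01 with vehicle, a difference of 0.76 ± 0.09. RRS1 and NOP14, both ribosome assembly factors, differed by 0.68 ± 0.09 and 0.58 ± 0.07. NPM1, the abundant nucleolar protein nucleophosmin, differed by 0.10 and did not pass. Of 20 tested mitochondrial ribosome genes 6 rose, and all 20 had a positive difference with a median of 0.17. MRPL16, of the large mitochondrial subunit, stood apart from that list at 10.90, 11.15 and 11.15 with estrogen and 10.00, 10.07 and 9.93 with vehicle, a difference of 1.07 ± 0.08 (adjusted p = 1.04e-08). With only the 6 arrays in the fit 10 of 27 ribosome biogenesis genes and 2 of 20 mitochondrial ones rose.

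The E-box CACGTG, the motif bound by MYC and related factors, is shown for the ribosome genes. It reads the same on both strands. Of 14 raised ribosome biogenesis genes with a window 7 held it (50.0%), as did 9 of 21 tested ones (42.9%), against 10.0% of the windows of all genes tested and 17.0% of the 522 windows of the genes that rose. Over all windows of the annotation 7.43% did. The 30-base windows, with the E-box in capitals, are those of BYSL (chr6:41921515-41921544, plus strand), FBL (chr19:39846356-39846385, minus), NOP14 (chr4:2963374-2963403, minus), NOP2 (chr12:6568242-6568271, minus), UTP20 (chr12:101280083-101280112, plus), UTP4 (chr16:69132621-69132650, plus) and WDR43 (chr2:28894658-28894687, plus).
BYSL: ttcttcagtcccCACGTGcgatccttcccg
FBL: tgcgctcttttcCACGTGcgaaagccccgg
NOP14: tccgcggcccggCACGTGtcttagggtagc
NOP2: gctaggtccggattgCACGTGgagggccgc
UTP20: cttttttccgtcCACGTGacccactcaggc
UTP4: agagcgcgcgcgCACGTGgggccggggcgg
WDR43: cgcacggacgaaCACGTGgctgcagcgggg
FBL encodes fibrillarin, which methylates ribosomal RNA, NOP2 is a ribosomal RNA methyltransferase, and the others act in ribosome assembly. These genes rose by between 0.32 (UTP4) and 0.66 (NOP2).

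The estrogen response element itself was rare in such windows. Its palindromic consensus, GGTCA followed after NNN by TGACC, reads the same on both strands and was in none of the 82 windows of genes that rose by at least 1 and in 2 of the 11448 windows of genes tested (0.0175%). No match says only that these letters are not in this window. The half-site AGGTCA, searched on both strands and able to overlap the full element, was in 10 of the 82 (12.2%), close to the 10.3% of all genes tested. The windows of RARA (chr17:40308938-40308967, plus strand), AGR3 (chr7:16882191-16882220, minus), THSD4 (chr15:71096800-71096829, plus) and TMPRSS3 (chr21:42389299-42389328, minus) are shown as examples, with the half-site in capitals on the strand of the gene.
RARA: ttctcctgtttcAGGTCAtcctatcctcga
AGR3: aaagatggtattTGACCTtattttatgagg
THSD4: ttgattctaatcAGGTCAagccaaccttcc
TMPRSS3: cagtttctctctTGACCTtgagacctccag
AGR3, a secreted disulfide isomerase relative, rose by 1.49 at dim levels, THSD4, an extracellular matrix protein, by 1.62 and TMPRSS3, a membrane serine protease next to TFF1, by 1.28.

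Of 15 tested amino acid transporters 5 rose and none fell, where 4.28% of all genes tested rose and 1.90% fell. Besides SLC6A14 these were SLC7A5, which carries large neutral amino acids, at 10.44, 10.57 and 10.46 with estrogen against 9.01, 9.01 and 8.53 with vehicle (1.63 ± 0.20), SLC7A1 (0.67 ± 0.10), SLC1A4 (0.67 ± 0.10) and SLC7A2 (0.26). Of 21 tested hypoxia and glycolysis genes 3 rose and 2 fell, with a median of 0.03. SLC2A1, the glucose transporter GLUT1, had 8.67, 8.65 and 8.61 with estrogen and 7.38, 7.01 and 6.99 with vehicle, a difference of 1.51 ± 0.17. The others that rose were PKM (0.62 ± 0.10) and LDHA (0.40), of the last steps of glycolysis. NDRG1 (-0.40 ± 0.10) and HK2 (-0.39 ± 0.07), a hexokinase, fell, but the mean of the HK2 probe sets differed by 0.08. Of 25 tested genes of cholesterol and fatty acid synthesis 2 rose, ELOVL5 (0.58 ± 0.12) and ACACA (0.24), and the median was 0.05. ACACA's call ended in 8 of 16 alternatives, and with only the 6 arrays in the fit neither gene passed. Of 21 tested genes of the unfolded protein response and ATF4, 2 rose, XBP1 (0.44) and PSAT1 (0.32), and the median was -0.01. These calls ended in 10 and 5 of 16 alternatives, and the count was 0 without estrogen replicate 3, without vehicle replicate 1 or without vehicle replicate 2. Against the shares of all genes tested, a count of 2 on either of these last lists is not read as a result about the list.

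Of 14 tested members of the HER family, their ligands and partners none rose and 1 fell, or 2 rose and 3 fell with the replicate block. The one that fell was ERBB4, a HER family receptor, at 7.0, 6.69 and 6.80 with estrogen against 7.54, 7.86 and 7.94 with vehicle (-0.95 ± 0.15, adjusted p = 0.000264). EGFR (-0.58 ± 0.17, adjusted p = 0.0526), LRIG1 (0.51, adjusted p = 0.0597) and TGFA (0.41, adjusted p = 0.134) passed with the replicate block (adjusted p = 0.00183, 0.00256 and 0.0485). Of 8 EGFR probe sets 5 had a negative difference, and dimmer TGFA probe sets differed by -0.06 and 0.03. Of 18 tested genes of MAPK pathway output CCND1 rose and 2 fell, EPHA4 (-0.62 ± 0.17) and SPRY1 (-0.37), and the median was -0.05. DUSP6, a phosphatase that follows ERK activity, differed by 0.04. The decreases of EPHA4 and SPRY1 ended in 5 and 11 of 16 alternatives. Of 22 tested FOXO-induced genes 2 rose, IRS1, an adaptor of the insulin and IGF1 receptors (8.94, 9.14 and 9.00 with estrogen, 7.49, 7.41 and 7.48 with vehicle, 1.56 ± 0.12), and BCL6, a transcriptional repressor (0.67 ± 0.16), and none fell, with a median of -0.08. With the replicate block 3 of the 22 rose and 3 fell. CCNG2, also on this list, differed by -0.28 in its brightest probe set, which did not pass. In a fit of all probe sets, 2 dimmer ones of CCNG2 (-0.51 and -0.52) passed. Over all genes tested 4.28% rose and 1.90% fell, so the small counts on these lists are not read as results about the lists.

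Cell identity genes changed in small steps. Of 17 tested luminal genes 4 fell and 2 rose, where 1.90% of all genes tested fell and 4.28% rose. ELF3, an epithelial transcription factor, had 8.58, 8.83 and 8.60 with estrogen and 9.51, 9.65 and 9.53 with vehicle, a difference of -0.90 ± 0.11. GATA3 (-0.34 ± 0.09) and FOXA1 (-0.32 ± 0.09), which open chromatin for the estrogen receptor, and the keratin KRT7 (-0.40) also fell, while XBP1 and the keratin KRT19 (0.35 ± 0.09) rose. Apart from ELF3 these calls ended in between 3 (GATA3) and 10 (XBP1) of 16 alternatives. Of 6 tested basal and mesenchymal genes VIM, the filament protein vimentin, rose (0.79 ± 0.21) and FN1, fibronectin, fell (-0.49 ± 0.14), with calls that ended in 4 of 16 and 6 of 14 alternatives. Of 12 tested steroid receptors and coregulators 1 rose, NRIP1, a corepressor (0.39), and 2 fell, GATA3 and FOXA1. NRIP1's call ended in 5 of 16 alternatives, and with only the 6 arrays in the fit none of the 12 passed. Of 9 tested targets of the aryl hydrocarbon receptor none passed. CYP1B1, one of them and an enzyme that hydroxylates estrogens, differed by 0.62 (adjusted p = 0.550) and passed with the replicate block (adjusted p = 0.00439).

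Of 13 tested interferon response genes 2 rose (background 4.28% higher), and they are neighbours on chromosome 4. Another 6 entries of the list were below the level filter. HERC6 had 8.92, 8.85 and 8.85 with estrogen and 6.84, 7.31 and 7.46 with vehicle, a difference of 1.66 ± 0.14. HERC5, the ligase that attaches ISG15, had 7.04, 6.58 and 6.58 with estrogen and 4.58, 4.77 and 4.66 with vehicle, a difference of 2.06 ± 0.15. The other 11 members did not pass and differed by between -0.31 and 0.05. ISG15 itself differed by -0.30 and MX1, an antiviral GTPase, by 0.05. The list does not hold every gene of this response: IFIH1, on chromosome 2 and not listed, rose by 1.02 ± 0.14.

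The 24 h response of control siRNA cells was compared next, to ask where the response in HER2 siRNA cells differed. In control siRNA cells 1005 genes were higher and 934 lower with estrogen (7.01% and 6.52%). Of the 613 genes higher in HER2 siRNA cells 464 were also higher in control siRNA cells, which is 75.7% of the 613 and 46.2% of the 1005. Of the 272 lower genes 192 were shared, 70.6% of the 272 and 20.6% of the 934. These comparisons use different arrays. Of the 96 genes that rose by at least 1, 85 were also called higher in control siRNA cells, and of the 11 that fell by at least 1, 7 were called lower. Among the 613 the median was 0.52 in HER2 siRNA cells and 0.48 in control siRNA cells, and among the 1005 it was 0.31 in HER2 siRNA cells and 0.45 in control siRNA cells. A list chosen in one set of arrays has larger values in that set, so these medians show no difference in strength. Across the 14335 genes, which are not independent replicates, the effects had a Pearson correlation of 0.737 and a Spearman correlation of 0.577.

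**Figure D4:**
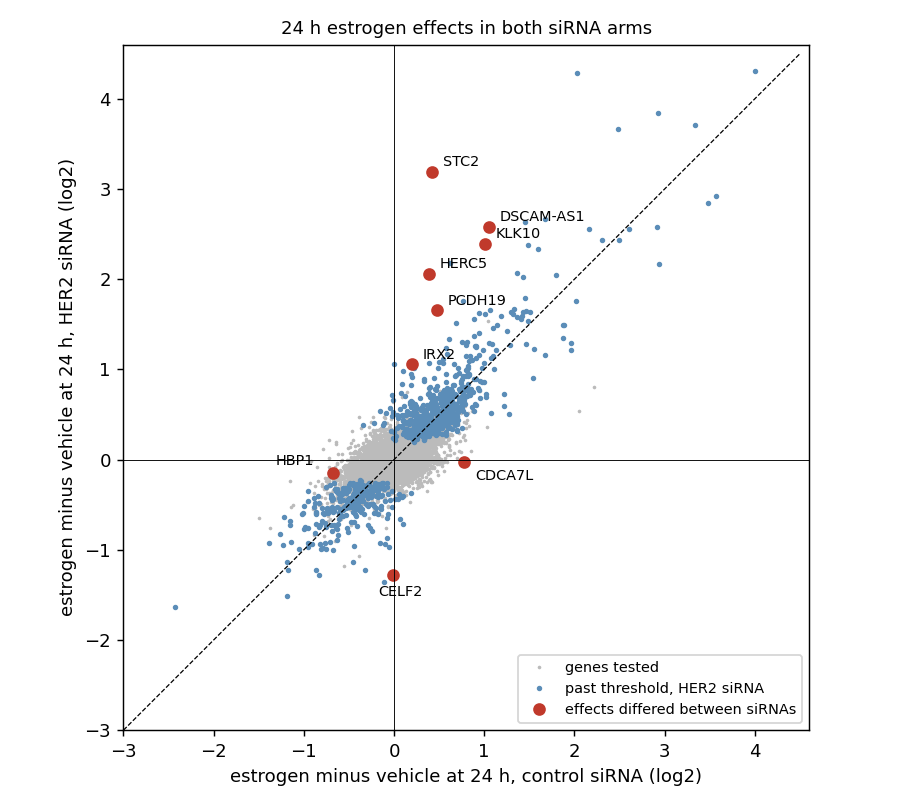
Estrogen minus vehicle at 24 h in HER2 siRNA cells (vertical axis, log2) against the same difference in control siRNA cells (horizontal axis, log2), with 1 point per gene tested, genes past the threshold in HER2 siRNA cells in blue and the 9 genes whose effects differed between the siRNAs in red. The dashed line marks equal effects, and STC2 lies farthest from it among the 9, at 3.19 with HER2 siRNA and 0.42 with control siRNA.

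The difference of the effects passed the test for 9 genes (0.0628% of those tested), 7 with a more positive effect in HER2 siRNA cells (0.0488%) and 2 with a more negative one (0.0140%), and 866 genes had an unadjusted p under 0.05. STC2 differed most, by 2.77 ± 0.29 (adjusted p = 7.66e-05). In control siRNA cells STC2 had 7.93, 8.07 and 7.88 with estrogen and 7.68, 7.53 and 7.42 with vehicle, a difference of 0.42 that did not pass, against 3.19 ± 0.21 in HER2 siRNA cells. A second STC2 probe set differed between the siRNAs by 2.32. HERC5 differed by 1.67 ± 0.21 (adjusted p = 0.000543), with effects of 2.06 in HER2 siRNA cells and 0.39 in control siRNA cells. Its control siRNA arrays stood at 4.45, 4.92 and 4.91 with estrogen and 4.39, 4.32 and 4.41 with vehicle, all under the level filter of 5, as were its HER2 siRNA vehicle arrays at 24 h. HERC5 thus passed the filter through the HER2 siRNA estrogen arrays, where it is high, and its values are a description of dim levels rather than an exact difference of effects. DSCAM-AS1 differed by 1.53 ± 0.21 (adjusted p = 0.00179), with effects of 2.58 and, in control siRNA cells, 1.05.

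KLK10 (1.39 ± 0.23), PCDH19, a protocadherin (1.18 ± 0.21), and IRX2, a homeobox factor (0.86 ± 0.15), also rose more in HER2 siRNA cells. For KLK10 the effects were 2.39 in HER2 siRNA cells and 1.01 in control siRNA cells, for PCDH19 1.66 and 0.48 in that order, and for IRX2 1.06 and 0.20. HBP1, a transcriptional repressor of the cell cycle, is of another kind: it differed by 0.53 ± 0.10, with effects of -0.14 in HER2 siRNA cells, which did not pass, and -0.67 in control siRNA cells. CELF2 differed by -1.26 ± 0.17 (adjusted p = 0.00179). It had 5.81, 5.99 and 5.92 with estrogen and 6.91, 7.24 and 7.39 with vehicle in HER2 siRNA cells, and 5.58, 5.95 and 5.59 with estrogen and 5.71, 5.68 and 5.76 with vehicle in control siRNA cells. Thus only the HER2 siRNA vehicle arrays were high, while a second CELF2 probe set differed between the siRNAs by -0.18 and did not pass. CDCA7L, a MYC-interacting protein, differed by -0.80 ± 0.12 (adjusted p = 0.00327), with effects of -0.02 in HER2 siRNA cells and 0.77 in control siRNA cells.

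**Figure D5:**
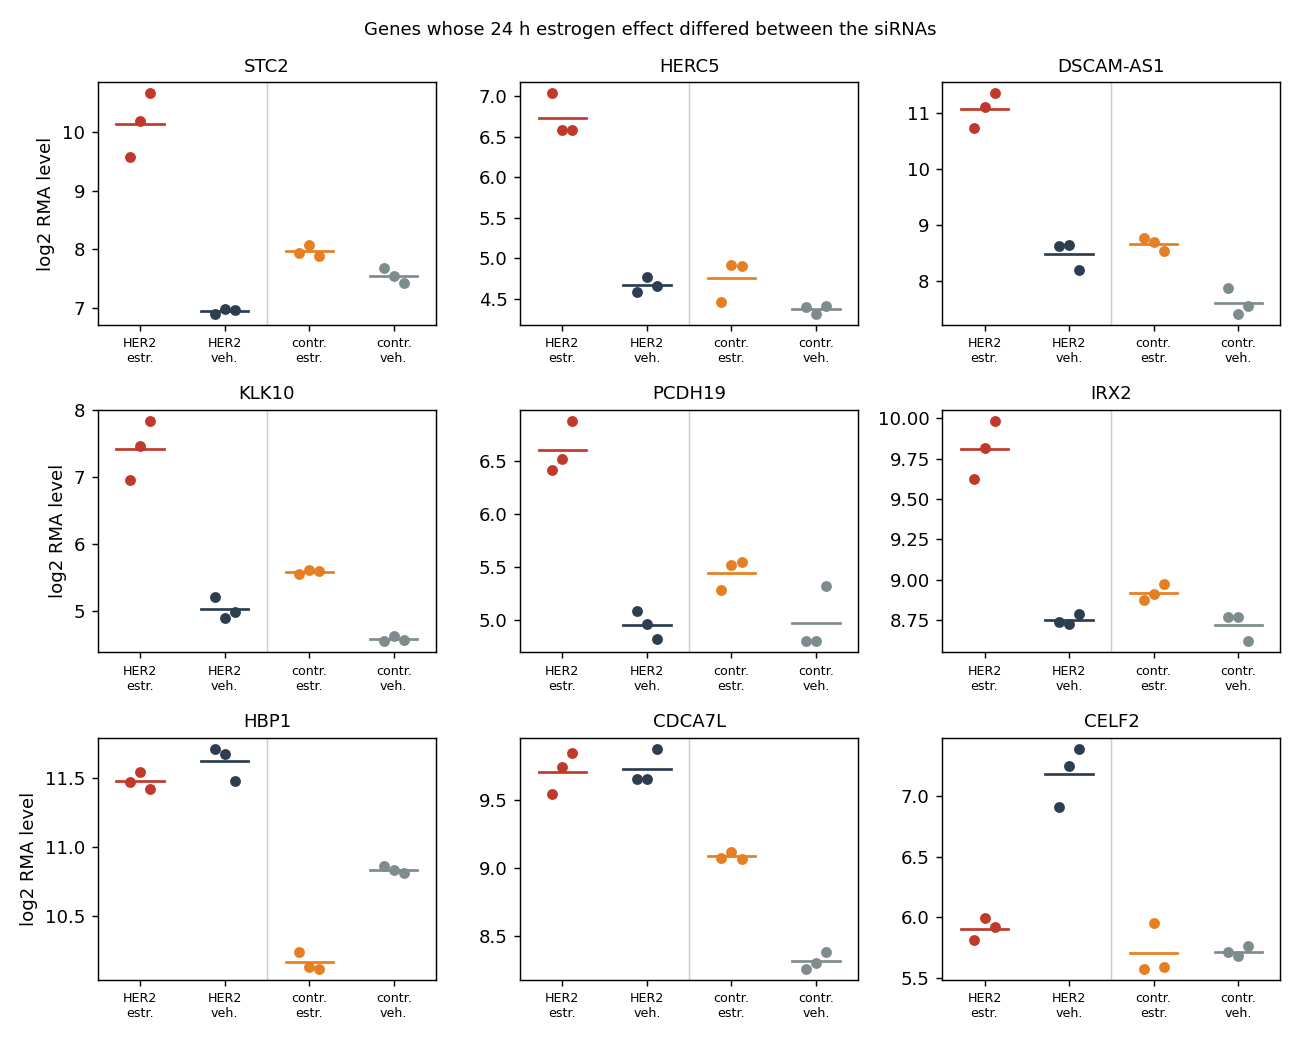
Log2 RMA level (vertical axis, with its own range in each panel) of the 9 genes whose 24 h estrogen effect differed between the siRNAs, in each array of HER2 siRNA cells with estrogen and vehicle and of control siRNA cells with estrogen and vehicle, left to right, with bars at the group means. STC2, HERC5, DSCAM-AS1, KLK10, PCDH19 and IRX2 are highest in HER2 siRNA cells with estrogen, and CELF2 is highest in HER2 siRNA cells with vehicle.

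The calls of STC2, HERC5 and CELF2 stood in all alternatives tried for this test, DSCAM-AS1 and CDCA7L lost theirs in 1 (only the groups compared in the fit, adjusted p = 0.0556 and 0.0786), and KLK10, PCDH19, IRX2 and HBP1 in 5, 9, 11 and 14. The count of 9 was 17 without HER2 siRNA estrogen replicate 1 and 5 without HER2 siRNA estrogen replicate 2. No other gene named here passed this test in the probe set that represents it. In a limma fit of all probe sets, a dimmer HSPB8 probe set passed, with a difference of 1.32 (adjusted p = 0.00241). The brightest HSPB8 probe set differed by 1.18 and did not pass. RASGRP1, with effects of 4.28 in HER2 siRNA cells and 2.03 in control siRNA cells, came close, with a difference of 2.25 ± 0.45 (adjusted p = 0.0668). For 41 of 48 replication genes estrogen raised the level in control siRNA cells (median 0.54), against 24 of 48 in HER2 siRNA cells (median 0.41), and no replication gene passed the test of the difference. For mitosis genes the counts were 13 of 42 in HER2 siRNA cells and 12 of 42 in control siRNA cells, with medians of 0.43 and 0.33. Over all genes tested, 4.28% were called higher in HER2 siRNA cells and 7.01% in control siRNA cells, so the counts of the arms are not on equal terms.

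The response was also set against that at 4 h in the same HER2 siRNA cells, when 95 genes were higher and 5 lower (0.698% together). The labels of 1 estrogen array at 4 h disagree: its source name says 24 h, its other labels say 4 h, and it was placed at 4 h. Of the 95 genes higher at 4 h 86 were also higher at 24 h, which is 90.5% of the 95 and 14% of the 613. The difference between the 24 h and the 4 h effect passed the test for 74 genes (0.516%), 57 more positive at 24 h (0.398%) and 17 more negative (0.119%). The count was 38 without estrogen 24 h replicate 3. TCN1 differed most, by 3.66 ± 0.37 (adjusted p = 2e-05). At 4 h TCN1 had 8.66, 8.07 and 8.16 with estrogen and 7.96, 7.49 and 7.51 with vehicle, ranges that do not overlap but lie close, against the difference of 4.31 at 24 h.

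KLK11 differed between times by 2.46 ± 0.26 and THSD4 by 1.61 ± 0.15. Their effects at 24 h were 2.67 and 1.62, and at 4 h, when neither passed, 0.21 and 0.01. STC2 (1.86 ± 0.29), TFF1 (1.76 ± 0.22), DSCAM-AS1 (1.72 ± 0.21), SLC6A14 (1.71 ± 0.33) and HSPB8 (1.58 ± 0.29) had already risen at 4 h, by 1.33, 1.95, 0.86, 1.13 and 1.05, and rose further. KLK10 differed by 1.99 ± 0.23, and MYBL1 by 1.85 ± 0.41 with a call that ended in 13 alternatives. Other early regulators had differences of 3.84 at 24 h and 2.78 at 4 h (MYC), 2.92 and 2.18 (MPPED2), 2.56 and 2.24 (HEY2), 2.44 and 1.51 (PGR), 1.56 and 0.94 (SIAH2) and 1.27 and 1.18 (RARA), and the change between times did not pass for any of these 6. Of the 26 tested early regulators 15 were called higher at 4 h, when the median was 0.81, and MYBL1 alone passed the test of the time difference. Of the 26 secreted and surface genes 8 were called higher at 4 h and 7 passed that test.

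Among genes with a more negative effect at 24 h, GRIK2 differed by -1.63 ± 0.30, UBE2QL1 by -1.21 ± 0.18, REG4 by -1.19 ± 0.23 and CELF2 by -1.16 ± 0.17. None of these had passed at 4 h, when their effects were 0.41, -0.31, 0.05 and -0.11. MME, the membrane protease neprilysin (-0.88 ± 0.16), SCGN, the calcium-binding protein secretagogin (-0.81 ± 0.17), CAMK1D, a calmodulin-dependent kinase (-0.77 ± 0.16), TMPRSS2, a membrane serine protease (-0.73 ± 0.11), CADM1, an adhesion molecule (-0.70 ± 0.12), and PCTP, a lipid transfer protein (-0.64 ± 0.11), followed. The calls of SCGN, CAMK1D and REG4 for the time difference ended in 10 of 21, 8 of 19 and 5 of 19 alternatives, those of TMPRSS2 in 2 and of GRIK2 and PCTP in 1. At 24 h MME, SCGN, CAMK1D, TMPRSS2, CADM1 and PCTP fell by between 0.70 and 0.94, and at 4 h they differed by between -0.11 and 0.09. No replication gene was called higher at 4 h (median 0.05) and 1 passed the test of the time difference, MCM6 (0.60 ± 0.11, adjusted p = 0.0124). In nucleotide synthesis 4 genes passed it, RRM2 (0.94 ± 0.16) and CTPS1 (0.77 ± 0.15) among them. No mitosis gene was called at 4 h (median -0.03), and 4 ribosome biogenesis genes were already higher then (median 0.16), NOP16 by 0.57 and RRS1 by 0.53.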

How the data were processed

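RNA from BT-474 cells was hybridised to Affymetrix HG-U133 Plus 2.0 arrays, 1 per sample, after Trizol extraction and biotin labelling, per the labels' protocols. The authors deposited log2 expression values made by RMA, per the submitters' processing notes; its version and settings are not given in the sources used here. Fold compression at low levels is a known property of such values.

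Of 54675 probe sets, 41091 had 1 gene symbol in the platform annotation, 1801 had several and 11721 had none; 62 were controls. Each gene was represented by its probe set with the highest mean, and was kept at a log2 level of at least 5 in at least 3 arrays. Group means of all 24 arrays were fitted with limma 3.58.1 in R 4.3.3 (lmFit, eBayes; 20.9 degrees of freedom) and p-values were adjusted by Benjamini-Hochberg over the 14335 genes tested. The method was tested on simulated data. Figures and motif searches used Python 3.11.15, pandas 2.3.3 and matplotlib 3.10.9.

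In the 6 arrays, same-numbered estrogen and vehicle arrays deviated together from their group means (correlations of 0.346, 0.378 and 0.592), so the replicate number pairs them. The pairing comes from the data, since the labels give the numbers alone. The main fit, with its standard errors and adjusted p-values, did not use the pairing. It gave 885 genes, and the replicate block gave 1251. Unless said to be within the 6 arrays, this block is 1 effect per replicate number shared by all 24 arrays. In other groups same-numbered arrays did not all deviate together (lowest correlations 0.0569 and -0.0356), so calls made only with the block are less certain. Alternatives changed the filter, the replicate block, the probe sets, the scaling, the variance prior, array weights and the arrays fitted, and left out each array in turn.

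The members and the 25 gene lists were chosen with earlier results of these data known. Of 568 list entries, some genes standing in several lists, 499 were tested. The genes named were up to 15 each way with the largest difference among those past the threshold with groups apart, up to 4 per list by adjusted p, up to 10 each way for each difference of effects, and ERBB2, ESR1, NCOA3 and E2F1. Other genes named (further list members, neighbours, genes whose sequences are shown, and IFIH1) were chosen after their values were seen.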

Additional observations from a re-analysis of the deposited data

Results flagged for a closer look

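The estrogen effect at 24 h differed between HER2 siRNA and control siRNA cells, by the test of the difference itself, for 9 genes. The differences, HER2 siRNA minus control siRNA on the log2 scale, were 2.77 for STC2, 1.67 for HERC5, 1.53 for DSCAM-AS1, 1.39 for KLK10, 1.18 for PCDH19, 0.86 for IRX2, 0.53 for HBP1, -1.26 for CELF2 and -0.80 for CDCA7L. The value of HERC5 rests on levels under the filter of 5 in every 24 h group but HER2 siRNA with estrogen.

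The estrogen effect in HER2 siRNA cells differed between 24 h and 4 h for 74 genes. The largest positive differences, 24 h minus 4 h, were 3.66 for TCN1, 2.46 for KLK11, 1.99 for KLK10, 1.86 for STC2, 1.85 for MYBL1, 1.76 for TFF1, 1.72 for DSCAM-AS1, 1.71 for SLC6A14, 1.61 for THSD4 and 1.58 for HSPB8. The largest negative ones were -1.63 for GRIK2, -1.21 for UBE2QL1, -1.19 for REG4, -1.16 for CELF2, -0.88 for MME, -0.81 for SCGN, -0.77 for CAMK1D, -0.73 for TMPRSS2, -0.70 for CADM1 and -0.64 for PCTP. STC2, HERC5, DSCAM-AS1, KLK10, PCDH19 and CELF2 passed both tests, and both use the 6 arrays of HER2 siRNA cells at 24 h. Groups of 3 arrays are too small for a test of single outlying arrays.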

How the results depend on the processing

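For the 24 h estrogen effect in HER2 siRNA cells, 885 genes passed (613 higher, 272 lower). With the replicate block 435 were lower, and with only the groups compared 458 passed (331 higher, 127 lower). Leaving out 1 array gave 551 to 796 genes, 369 to 577 higher and 160 to 234 lower. The replicate block within the 6 arrays, added after seeing the data, gave 1070. Averaging probe sets turned HK2 to 0.0805. With ACTB in place of GAPDH the 3′ to 5′ difference was 0.0893, of the other sign. For the difference between siRNAs (9 genes; 7 higher, 2 lower), the replicate block gave 34 (28 and 6), the intensity trend with a robust prior 16 (13 higher), array weights 22 (17 and 5) and only the groups compared 4 (3 and 1). Without the 3 replicate 1 arrays whose running numbers in the labels lie apart from the other 21 (1 of these numbers is written with a misplaced point), 4 were higher, and with a log2 level of at least 7 there was 1 lower. Leaving out 1 array gave 5 to 17 genes, 3 to 15 higher and 2 to 3 lower. For the difference between times (74 genes; 57 higher, 17 lower), the log2 level of at least 7 gave 124 (88 and 36), the replicate block 198 (135 and 63) and only the groups compared 20 (16 and 4). The mean of probe sets gave 10 lower and the intensity trend 32. Leaving out 1 array gave 38 to 111 genes, 29 to 90 higher and 9 to 31 lower. Only the groups compared means fewer arrays to estimate the spread; the cause of the other shifts was not tested. In these 2 differences same-numbered arrays of the other groups did not all deviate together (lowest correlations 0.0569 and -0.0356), so the numbers are not taken as pairs there. The number of arrays limits all counts.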
